A study of Homo sapiens with 6 samples.

Results

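The genes described here are 10 members of the xenobiotic and lipid oxidation system: the cytochromes P450 CYP1A1, CYP1B1, CYP2S1, CYP4F3, CYP4F11 and CYP24A1, the microsomal epoxide hydrolase EPHX1, the receptor AHR, its repressor AHRR, and the reductase POR. They were taken by gene symbol from the 17789 symbols that at least 1 of the deposited tables lists, and all 10 were found, each at a single locus. RNA sequencing was done on 6 libraries of A549, a cell line from a human lung tumour of the non-small-cell type. Each library was deposited as FPKM, a fragment count divided by transcript length and library depth. In 3 libraries FOXD3, a forkhead transcription factor, was knocked down with a commercial pool of small interfering RNAs delivered by lipid transfection, and 3 control libraries are labelled wild type. By the labels' protocols the knockdown was checked at 72 h. What the control cells received is not stated there, so the effect of transfection cannot be told apart from that of the knockdown. All cells were grown in MEM with serum. The labels number no replicates, so the numbers used here follow the order of deposit and pair nothing. Nothing in the labels says that replicates were separate cultures, so p-values cover only the spread between these libraries, which may be technical.

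Cytochromes P450 are haem enzymes of the endoplasmic reticulum or mitochondria that insert oxygen into foreign compounds, fatty acids, eicosanoids, steroids and vitamins. The microsomal ones draw electrons from POR, and reactive epoxides that some of them make are opened to diols by EPHX1. AHR is a ligand-activated transcription factor that waits in the cytosol with HSP90 and p23, pairs with ARNT in the nucleus and switches on CYP1A1, CYP1B1 and AHRR. AHRR in turn competes with AHR for ARNT and so forms a feedback loop. In airway epithelium this system meets the polycyclic hydrocarbons of smoke.

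The promoters of 7 of the 10 genes, 11 sequences of 300 bases in all, were found in the RefSeq table (GRCh38.p14), each running from 250 bases before the transcription start to 50 after it. They were searched on both strands for the AHR:ARNT core GCGTG, the forkhead core TGTTTAC and the antioxidant response element TGACNNNGC, motifs picked with the expression results known. CYP1A1 and AHRR are shown because both are classical AHR targets, and here the capitals mark GCGTG. CYP4F3 and CYP4F11 are shown because these paralogs of one gene cluster changed in the same direction, and in them the capitals mark TGTTTAC. The intervals are chr15:74725479-74725778 (minus strand) for CYP1A1, chr5:321464-321763 (plus) for the first of 2 AHRR promoters, chr19:15641062-15641361 (plus) for CYP4F3 and chr19:15934480-15934779 (minus) for the CYP4F11 promoter that holds the match. All 4 are written 5′ to 3′ on the gene's strand.
CYP1A1: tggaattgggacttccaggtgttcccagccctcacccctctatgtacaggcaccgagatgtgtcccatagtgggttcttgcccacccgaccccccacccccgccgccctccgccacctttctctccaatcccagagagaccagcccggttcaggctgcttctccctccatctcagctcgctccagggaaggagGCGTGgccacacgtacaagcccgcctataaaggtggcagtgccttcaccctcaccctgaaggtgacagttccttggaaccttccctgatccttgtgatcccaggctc
AHRR: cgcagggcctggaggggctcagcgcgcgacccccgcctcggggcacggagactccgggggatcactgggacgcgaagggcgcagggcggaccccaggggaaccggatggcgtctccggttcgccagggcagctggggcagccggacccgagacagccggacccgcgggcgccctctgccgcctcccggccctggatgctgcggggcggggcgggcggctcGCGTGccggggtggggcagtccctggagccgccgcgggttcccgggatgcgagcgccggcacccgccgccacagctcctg
CYP4F3: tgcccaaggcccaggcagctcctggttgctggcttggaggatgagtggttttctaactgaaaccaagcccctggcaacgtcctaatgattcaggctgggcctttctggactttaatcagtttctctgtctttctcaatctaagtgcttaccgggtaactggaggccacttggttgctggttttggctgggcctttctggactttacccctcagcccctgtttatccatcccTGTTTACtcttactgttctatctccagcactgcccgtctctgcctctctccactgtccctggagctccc
CYP4F11: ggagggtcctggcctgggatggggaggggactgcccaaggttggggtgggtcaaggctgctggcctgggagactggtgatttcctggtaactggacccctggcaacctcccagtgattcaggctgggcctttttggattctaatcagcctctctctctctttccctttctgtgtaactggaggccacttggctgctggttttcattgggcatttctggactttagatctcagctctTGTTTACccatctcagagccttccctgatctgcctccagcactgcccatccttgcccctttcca
Counting the start site as base 0, the GCGTG of CYP1A1 begins at base -57 and that of AHRR at base -30. GCGTG is common, being present in 36.5% of the 35116 promoters in the table. TGTTTAC begins at base -19 in CYP4F3 and at base -14 in CYP4F11, and 3.42% of all promoters hold it. In a global alignment these CYP4F3 and CYP4F11 promoters had 62.4% identical positions, whereas CYP4F3 and the other 9 promoters had 45.6% to 51.3%. EPHX1 has 3 promoters in RefSeq, and only the one at chr1:225825104-225825403 holds any of the motifs, namely GCGTG on both strands and TGACNNNGC, which 13.3% of promoters hold. A match is a description of the letters and not evidence of binding.

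FPKM is a level per transcript length and was used to order the genes. In the knockdown libraries EPHX1 was highest at a mean of 158 FPKM, followed by CYP4F11 at 66.2, CYP1B1 at 53.8, POR at 48.7, CYP4F3 at 23.3, AHR at 18.4 and CYP2S1 at 6.39. AHRR, at 0.916 FPKM, and CYP1A1, at 0.827, overlapped each other in the knockdown libraries, and CYP24A1 was last at 0.0447. In the control libraries EPHX1 was again highest, at 78.0 FPKM, but CYP1B1 came second at 59.3, and POR at 43.1 and CYP4F11 at 43.0 overlapped. The remaining control order was AHR at 16.6, CYP4F3 at 11.8, CYP2S1 at 5.87, AHRR at 2.24 and then CYP1A1 at 0.465 and CYP24A1 at 0.392, which overlapped. Between the groups, CYP4F11 thus stood above CYP1B1 in every knockdown library and below it in every control library, and CYP4F3 stood above AHR in the knockdown libraries and below it in the controls.

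**Figure D1:**
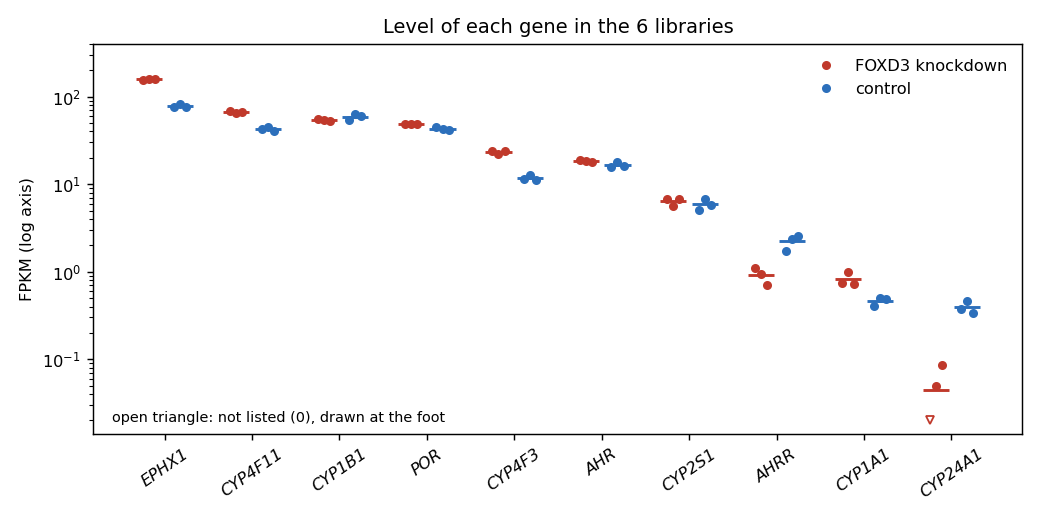
FPKM on a log axis for the 10 genes in each library, with FOXD3 knockdown libraries (red) left of control libraries (blue) and horizontal bars at the group means (n = 3). EPHX1, CYP4F11 and CYP4F3 are higher in every knockdown library, AHRR and CYP24A1 are lower in every one, and CYP1B1, AHR and CYP2S1 overlap between groups; the open triangle is a library that does not list CYP24A1.

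The targeted gene was at the detection limit. FOXD3 stood at 0.0749 FPKM in knockdown replicate 2 and was not listed in the other 2 knockdown libraries, against 0.152, 0.291 and 0.134 FPKM in the controls (p = 0.1 by an exact permutation test, two-sided on the means, the smallest that 3 against 3 allows). The 6 epithelial markers summed to 8754 to 8832 FPKM in knockdown and 6743 to 7707 FPKM in control libraries. They were split: EPCAM, KRT8 and KRT18 rose, KRT7 and CDH1 fell, and KRT19 was not called. The 8 alveolar type II markers summed to 5.28 to 6.09 FPKM in knockdown and 9.95 to 10.4 FPKM in control libraries. Of the 3 that passed the filter, ABCA3 and LAMP3 fell and NKX2-1 was not called, 4 surfactant genes lay under the filter, and SFTPB was listed in no library. The deposited files hold no counts. From the FPKM that 1 fragment gives in long intronless genes, depth was roughly estimated at 6580000 to 7910000 fragments per library. Only genes with an implied depth between 5000000 and 12000000 were used, 4 to 10 per library. That window, set beforehand, partly fixes the estimate, so the fragment numbers given below are rough. Changes are given as log2(FPKM + 1), knockdown minus control, a scale that understates changes of low genes. They were tested in limma over the 13340 genes whose mean reached 0.5 FPKM. In that comparison 63.5% of all genes passed at a Benjamini-Hochberg adjusted p under 0.05, 25.6% higher and 37.9% lower in knockdown cells. The counts of called genes given below for each list are to be read beside these shares. Of the 9 members tested, 5 passed as higher and 1 as lower, a total of 6 that is close to the share among all genes. In 6 of these 9 members every knockdown library lay on one side of every control, again close to the 69.1% of all tested genes. In 5 of them the knockdown libraries were the higher ones, which held for 28.3% of all tested genes. The median change of all genes was -0.087 as deposited, -0.0063 after median scaling and 0.025 after quantile normalization, so small changes are read against that shift. The split of all calls was 3417 higher and 5050 lower as deposited, and 4304 higher and 3909 lower after quantile normalization.

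EPHX1, the most abundant member, rose. It encodes the microsomal epoxide hydrolase, which turns epoxides of aromatic hydrocarbons and drugs into diols. EPHX1 (Entrez 2052, chromosome 1, 225997797 to 226033262, hg19) had 156, 158 and 159 FPKM in knockdown replicates 1, 2 and 3, against 75.8, 81.4 and 76.9 FPKM in the controls. The knockdown libraries lay within a few FPKM of each other and far above all controls. The ratio of the means was 2.02 and the log2 change 1.01 (SE 0.0419; limma, Benjamini-Hochberg adjusted p = 1.07e-06). Other epoxide hydrolases went mainly the other way. EPHX3, an epoxide hydrolase of squamous epithelia, averaged 4.38 ± 0.427 FPKM in knockdown and 1.43 ± 0.108 in control libraries (SD, n = 3 each) and rose. EPHX2, the soluble enzyme that hydrolyses fatty acid epoxides, averaged 1.38 ± 0.224 and 3.02 ± 0.304 FPKM in knockdown and control libraries, and EPHX4 2.84 ± 0.215 and 4.28 ± 0.348. Both fell, as did LTA4H, described below, so that 1 of these 4 genes was higher and 3 lower, with a median log2 change of -0.61. The EPHX4 call was lost after quantile normalization (adjusted p = 0.0781). The 3' end of EPHX1 overlaps TMEM63A by 30 bp in the deposited loci. TMEM63A fell, to 23.1, 24.0 and 23.2 FPKM in knockdown libraries against 32.0, 35.8 and 35.4 FPKM in controls.

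CYP4F3 and CYP4F11 rose together. CYP4F3 is the omega-hydroxylase that inactivates leukotriene B4, and CYP4F11 hydroxylates long-chain fatty acids and vitamin K. CYP4F3 (Entrez 4051, chromosome 19, 15751707 to 15771570, hg19) had 24.0, 22.2 and 23.7 FPKM in the knockdown libraries and 11.4, 12.6 and 11.2 FPKM in the controls. Every knockdown value was well above every control value, and the change was 0.93 in log2 units (SE 0.065; adjusted p = 1.03e-05 in limma). CYP4F11 (Entrez 57834, chromosome 19, 16023180 to 16045676, hg19) had 67.8, 64.7 and 66.3 FPKM in the knockdown libraries and 43.1, 44.9 and 40.9 FPKM in the controls. These groups did not overlap either, and CYP4F11 changed by 0.61 on the log2 scale (SE 0.0494; limma, Benjamini-Hochberg adjusted p = 2.03e-05). Within each library the ratio of CYP4F3 to CYP4F11, which scaling a library by a factor cannot alter, was 0.353, 0.343 and 0.357 in knockdown libraries and 0.265, 0.281 and 0.275 in controls (exact two-sided permutation test, p = 0.1, the smallest possible). The ratio was higher in every knockdown library, although reads of such close paralogs can be divided uncertainly between them.

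Both lie in a cluster on chromosome 19 in which the files list 6 CYP4F symbols over 320 kb. No other gene of the cluster passed as higher. CYP4F12, a fatty acid hydroxylase 12.3 kb beyond CYP4F3, averaged 1.87 FPKM in knockdown and 2.81 FPKM in control libraries and fell by 0.41 on the log2 scale (SE 0.119; limma, Benjamini-Hochberg adjusted p = 0.0164). That call was lost after quantile normalization (log2 change -0.13, adjusted p = 0.39) and without knockdown replicates 1 or 2 or control replicate 3 (adjusted p = 0.0599, 0.0502 and 0.0549). CYP4F8, CYP4F2 and the pseudogene CYP4F24P stayed under the filter in both groups. CYP4F2, which lies between the risers and 14.3 kb from CYP4F11, averaged 0.0335 FPKM in knockdown and 0.0740 FPKM in control libraries.

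Genes of leukotriene and lipoxygenase metabolism, the pathway of CYP4F3's substrate, were mostly lower. Of 10 tested genes 7 fell and 1 rose, with a median log2 change of -0.65. By comparison, 37.9% of all tested genes were lower and 25.6% higher. ALOX5, the 5-lipoxygenase that begins leukotriene synthesis, had 30.1, 26.2 and 27.6 FPKM in knockdown libraries against 62.2, 61.3 and 64.8 FPKM in controls. LTA4H, which makes leukotriene B4, had 33.6, 32.2 and 35.2 FPKM in knockdown libraries against 57.8, 64.0 and 71.0 FPKM in controls. LTC4S, which makes leukotriene C4, averaged 2.37 ± 0.233 and 5.85 ± 1.04 FPKM in knockdown and control libraries, and ALOX5AP, the partner of 5-lipoxygenase, was listed in only 1 knockdown library (0.381 FPKM) against 0.615, 1.23 and 1.81 FPKM in controls. The gene that rose was PTGR1, which oxidises leukotriene B4 by another route than CYP4F3, at 550.4 ± 15.5 FPKM in knockdown and 331 ± 12.4 in control libraries. Leukocyte markers moved with this group. All 4 of the 12 markers that passed the filter fell, and the summed level of the whole list was 94.7 to 98.3 FPKM in knockdown and 169.7 to 188 FPKM in control libraries, mainly LCP1 and CD68. LCP1, an actin-bundling protein, had 24.7, 24.1 and 27.6 FPKM in knockdown libraries against 101, 97.6 and 87.4 FPKM in controls, and the CD68 call was lost after median scaling (adjusted p = 0.279). The pan-leukocyte marker PTPRC was at 0.146 to 0.229 FPKM in knockdown and 0.184 to 0.309 FPKM in control libraries, and the B-cell marker MS4A1 was listed in no library. The 2 endothelial markers that passed the filter, CDH5 and ESAM, fell as well. All libraries are of the A549 line, so a marker's name here does not show that leukocytes or endothelial cells were present. Any link of these transcripts to the leukotriene result was not tested.

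The AHR branch was uneven. AHR itself (Entrez 196, chromosome 7, 17338276 to 17385775, hg19) had 18.8, 18.5 and 17.9 FPKM in knockdown libraries and 15.8, 17.9 and 16.1 FPKM in controls. The highest control library reached the lowest knockdown library, and the log2 change of 0.14 missed the threshold (95% interval -0.0063 to 0.29; limma, Benjamini-Hochberg adjusted p = 0.0854). The difference passed after median scaling (log2 change 0.22, adjusted p = 0.0124), after quantile normalization (0.19, adjusted p = 0.0281) and without control replicate 2 (0.19, adjusted p = 0.0271).

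AHRR, the repressor, fell. AHRR (Entrez 57491, chromosome 5, 304291 to 438405, hg19) had 1.10, 0.941 and 0.704 FPKM in knockdown libraries and 1.74, 2.38 and 2.58 FPKM in controls. The groups did not overlap, the knockdown mean was 41.0% of the control mean, and the change was -0.75 in log2 units (SE 0.136; adjusted p = 0.00157 in limma). With the rough depth above, this is some 45.6, 38.3 and 31.5 fragments in knockdown libraries and 67.1, 88.8 and 105 fragments in controls, on the longest coding transcript in GENCODE 29. The ratio of AHRR to AHR within a library was 0.0587, 0.0508 and 0.0394 in knockdown libraries and 0.110, 0.133 and 0.160 in controls (exact two-sided permutation test, p = 0.1). The AHRR locus overlaps PDCD6, a calcium-binding protein gene, by 10799 bp. PDCD6 was far more abundant, at 197 to 203 FPKM in knockdown and 162 to 164 FPKM in control libraries, and rose (log2 change 0.29; limma, Benjamini-Hochberg adjusted p = 0.000183), so the overlapping genes changed in opposite directions. Whether reads were counted by strand is not stated, so reads in the overlap cannot be assigned.

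Of the classical AHR targets CYP1A1 and CYP1B1, the first passed as higher and the second did not pass. CYP1A1, which oxidises polycyclic hydrocarbons (Entrez 1543, chromosome 15, 75011883 to 75017877, hg19), had 0.747, 1.00 and 0.733 FPKM in knockdown libraries and 0.403, 0.504 and 0.487 FPKM in controls. Every knockdown library was above every control and the ratio of means was 1.78, but the level was low, at about 14.7, 19.3 and 15.6 estimated fragments in knockdown libraries and 7.35, 8.92 and 9.37 in controls. Its change of 0.32 in log2 units (SE 0.114; adjusted p = 0.0389 in limma) was past the threshold by little, and leaving out any 1 of the 6 libraries lost the call, with adjusted p between 0.0512 and 0.127. CYP1B1, which oxidises oestrogens and hydrocarbons (Entrez 1545, chromosome 2, 38294746 to 38303323, hg19), was abundant, at 55.4, 53.9 and 52.2 FPKM in knockdown libraries and 54.7, 63.5 and 59.8 FPKM in controls. The groups overlapped, with a log2 change of -0.14 (95% interval -0.28 to 0.0038; limma, Benjamini-Hochberg adjusted p = 0.0812). It passed as lower after quantile normalization (-0.22, adjusted p = 0.0196) and without control replicate 1 (-0.19, adjusted p = 0.00946). Within a library the ratio of CYP1A1 to CYP1B1 averaged 0.0154 ± 0.00278 in knockdown and 0.00782 ± 0.000400 in control libraries (SD, n = 3 each), with no overlap (exact two-sided permutation test, p = 0.1).

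**Figure D2:**
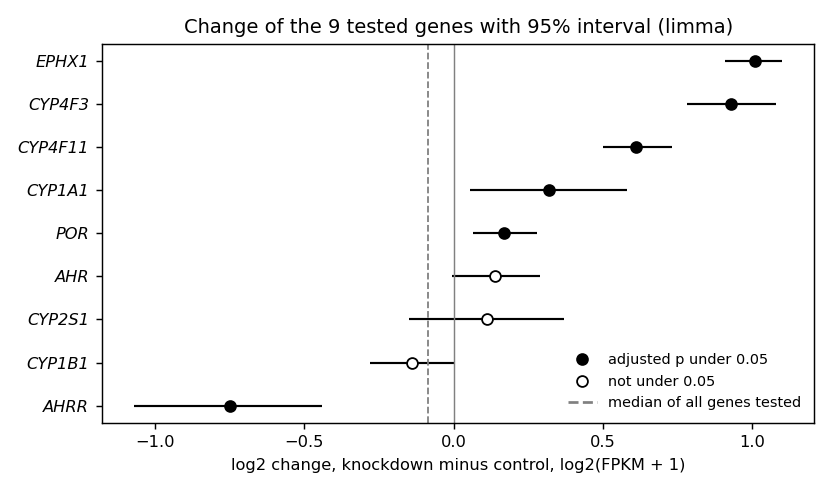
Change of the 9 tested genes, as knockdown minus control in log2(FPKM + 1), with limma's 95% intervals; filled points passed at an adjusted p under 0.05 and the dashed line is the median of all genes tested (-0.087). EPHX1 (1.01), CYP4F3 (0.93) and CYP4F11 (0.61) lie farthest to the right and AHRR (-0.75) farthest to the left.

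Of 9 genes that work with AHR, 4 rose and 3 fell, with a median log2 change of 0.0029. The chaperones that hold the receptor were among the risers. HSP90AA1 averaged 1974 ± 30.0 FPKM in knockdown and 807 ± 7.47 in control libraries, its constitutive paralog HSP90AB1 845 ± 6.04 and 696 ± 13.7, and PTGES3, which encodes p23, 357 ± 2.02 and 233 ± 9.39. ARNT2, a paralog of the nuclear partner ARNT, averaged 4.20 ± 0.419 FPKM in knockdown and 1.27 ± 0.336 in control libraries and rose. ARNT itself averaged 10.1 ± 0.708 FPKM in knockdown and 12.7 ± 0.849 in control libraries, and the kinase SRC 18.1 ± 0.138 and 23.2 ± 0.748; both fell.

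Further AHR target genes were more often higher than lower, with 4 risers and 2 fallers among 7 tested and a median log2 change of 0.34. Over all tested genes the shares were 25.6% higher and 37.9% lower. ALDH3A1, an aldehyde dehydrogenase, averaged 144 ± 4.72 FPKM in knockdown and 77.6 ± 3.95 in control libraries. NQO1, a quinone reductase, averaged 347 ± 2.13 and 275 ± 17.4 FPKM in knockdown and control libraries, UGT1A6, a glucuronosyltransferase whose last exons are shared by its whole locus, 238 ± 8.75 and 186 ± 5.11, and the efflux pump ABCG2 9.43 ± 0.361 and 5.97 ± 0.634. NQO1 and ALDH3A1 are also targets of NRF2. TIPARP, an AHR target that, like AHRR, represses the receptor, fell to 22.5, 22.2 and 22.7 FPKM in knockdown libraries against 28.2, 29.1 and 31.1 FPKM in controls. STC2, a secreted glycoprotein, averaged 24.2 ± 1.44 FPKM in knockdown and 52.4 ± 3.08 in control libraries and fell. CYP1A2, the neighbour of CYP1A1, was listed in 1 of the 6 libraries only, at 0.0419 FPKM in knockdown replicate 2.

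CYP24A1, the mitochondrial enzyme that degrades active vitamin D, was near the detection limit. CYP24A1 (Entrez 1591, chromosome 20, 52769988 to 52790516, hg19) was not listed in knockdown replicate 1 and had 0.0490 and 0.0853 FPKM in replicates 2 and 3, against 0.372, 0.466 and 0.338 FPKM in the controls. Every knockdown value was below every control value (exact two-sided permutation test, p = 0.1). In estimated fragments this was 0, 1.15 and 2.20 in knockdown libraries against 8.25, 10.0 and 7.90 in controls, so the size of the difference is poorly measured. The gene lay under the filter; with no filter on low values its log2 change was -0.41 (SE 0.0522; limma, Benjamini-Hochberg adjusted p = 0.00105 over all listed genes). VDR, the vitamin D receptor, had 11.2 to 12.1 FPKM in knockdown and 10.7 to 11.2 FPKM in control libraries and was not called. Of 6 tested genes of vitamin D handling 1 rose and 3 fell, with a median log2 change of -0.23. RXRA, the partner of VDR, averaged 32.1 ± 1.42 FPKM in knockdown and 25.3 ± 0.163 in control libraries, whereas RXRB averaged 15.2 ± 0.576 and 20.8 ± 1.11. DHCR7, which consumes the vitamin's precursor, averaged 76.9 ± 2.85 FPKM in knockdown and 108 ± 12.9 in control libraries.

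CYP2S1, a P450 of epithelia that metabolises retinoic acid, showed no difference beyond the spread. CYP2S1 (Entrez 29785, chromosome 19, 41699115 to 41713444, hg19) had 6.84, 5.63 and 6.69 FPKM in knockdown libraries and 5.04, 6.85 and 5.71 FPKM in controls. The knockdown range lay within the control range, and the log2 change of 0.11 had a 95% interval of -0.15 to 0.37 (limma, Benjamini-Hochberg adjusted p = 0.426). Its neighbour AXL, a receptor tyrosine kinase gene 11.7 kb away, had 14.6, 13.7 and 14.9 FPKM in knockdown libraries against 42.0, 42.8 and 39.4 FPKM in controls.

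POR, the electron donor of all microsomal P450s, rose slightly. POR (Entrez 5447, chromosome 7, 75544420 to 75616173, hg19) had 49.2, 48.6 and 48.2 FPKM in knockdown libraries and 45.1, 42.8 and 41.4 FPKM in controls. The groups did not overlap, and the change was 0.17 in log2 units (SE 0.0475; adjusted p = 0.0125 in limma). Summed over the 43 P450 symbols in the files, P450 transcripts came to 208, 202 and 205 FPKM in knockdown libraries and 181, 189 and 177 FPKM in controls. Divided by POR in the same library, that sum was 4.22, 4.15 and 4.25 in knockdown and 4.02, 4.42 and 4.29 in control libraries. The knockdown ratios lay within the range of the control ratios (p = 0.8 by an exact permutation test, two-sided). After quantile normalization the knockdown mean of this ratio was instead higher by 0.243, and without control replicate 2 by 0.0520. EPHX1 was higher relative to POR, at ratios of 3.18, 3.24 and 3.30 in knockdown and 1.68, 1.90 and 1.86 in control libraries (exact two-sided permutation test, p = 0.1). The make-up of the P450 sum differed as well. CYP4F11 held 32.3% ± 0.291 of it in knockdown and 23.5% ± 0.392 in control libraries, CYP4F3 11.4% ± 0.325 and 6.44% ± 0.212, and CYP1B1 26.3% ± 0.701 and 32.5% ± 2.01 (SD, n = 3 each). These ratios were chosen after the levels had been seen.

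**Figure D3:**
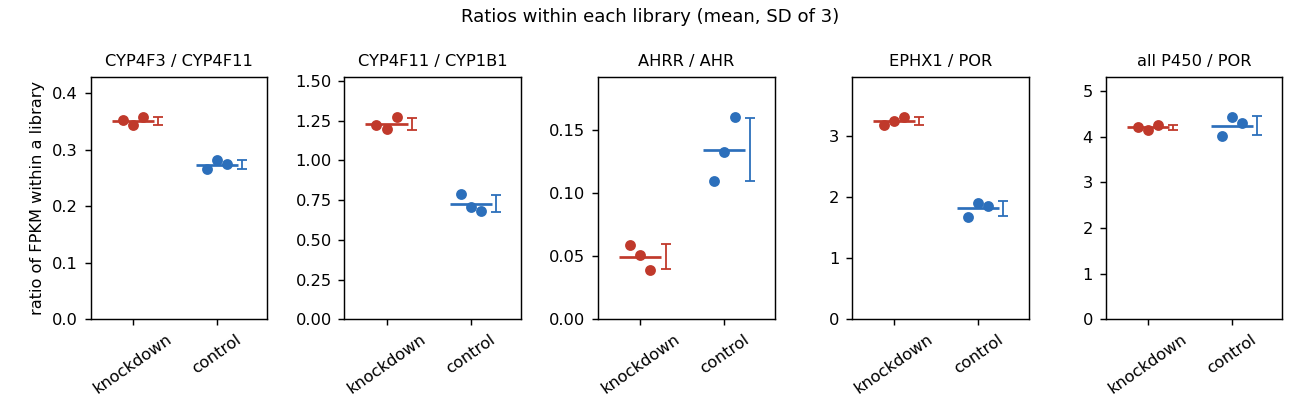
Ratio of 2 FPKM values within each library, knockdown left (red) and control right (blue), with the mean as a bar and the SD of 3 libraries beside it. CYP4F3 to CYP4F11, CYP4F11 to CYP1B1 and EPHX1 to POR are higher in every knockdown library and AHRR to AHR is lower in every one, while the sum of all P450 symbols over POR overlaps.

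Other electron donors and haem oxygenases were divided, with 6 higher and 5 lower of 14 tested and a median log2 change of 0.0026. CYB5A, cytochrome b5, which passes electrons to some P450s, fell to 33.4 ± 0.941 FPKM in knockdown libraries against 55.8 ± 0.430 in controls. CYB5R2, a cytochrome b5 reductase, fell to 1.19 ± 0.199 FPKM in knockdown libraries against 4.96 ± 0.437 in controls, while its relative CYB5R4 averaged 16.9 ± 0.773 and 11.5 ± 1.27 FPKM in knockdown and control libraries and rose. PGRMC1, a haem-binding membrane partner of P450s, rose to 116 ± 1.68 FPKM in knockdown libraries, against 93.3 ± 4.76 in controls. HMOX1, the inducible haem oxygenase, rose to 16.3 ± 1.16 FPKM in knockdown libraries, against 9.62 ± 1.62 in controls.

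Of 8 enzymes of haem synthesis 5 fell and none passed as higher as deposited, with a median log2 change of -0.23. The total of 5 called is close to the share among all tested genes (63.5%), where 37.9% were called lower. ALAS1, the first and rate-limiting enzyme, had 27.1, 27.9 and 28.1 FPKM in knockdown libraries against 49.9, 46.5 and 48.0 FPKM in controls (log2 change -0.77, SE 0.0476; limma, Benjamini-Hochberg adjusted p = 5.71e-06). PPOX, a later mitochondrial step, averaged 3.13 ± 1.03 FPKM in knockdown and 8.47 ± 0.502 in control libraries. ALAD and UROS, enzymes of the cytosolic steps, fell by 0.30 and 0.23 on the log2 scale. FECH, the last enzyme, passed as higher after median scaling (adjusted p = 0.0266) and quantile normalization (adjusted p = 0.0172). The UROS call and that of CPOX were lost after median scaling (adjusted p = 0.0518 and 0.0595).

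Among the 37 other P450 symbols in the files, 22 were under the filter, including CYP3A4 and CYP2E1, drug-metabolising P450s of liver, and of 7 hepatocyte markers none passed the filter and 4, ALB among them, were listed in no library. Of the 15 tested, 2 rose and 5 fell, with a median log2 change of -0.04. Among all tested genes 25.6% were higher and 37.9% lower. CYP27C1, a retinoid desaturase, averaged 3.64 ± 0.268 FPKM in knockdown and 1.71 ± 0.210 in control libraries and rose. CYP2J2, an arachidonic acid epoxygenase, averaged 4.50 ± 0.540 and 7.58 ± 0.238 FPKM in knockdown and control libraries, and CYP4V2, a fatty acid hydroxylase, 0.714 ± 0.172 and 2.24 ± 0.570; both fell. CYP27B1, which makes active vitamin D, averaged 0.374 ± 0.292 FPKM in knockdown and 1.16 ± 0.533 in control libraries; the groups overlapped, and the call (limma, Benjamini-Hochberg adjusted p = 0.0293) was lost after median scaling, at 0.0523, and quantile normalization, at 0.222. The total of 7 calls dropped to 4 when knockdown replicate 1 or 2 or control replicate 1 or 3 was left out. CYP51A1, the sterol demethylase and the most abundant of these genes, was at 26.2, 26.3 and 27.7 FPKM in knockdown and 32.4, 25.3 and 24.9 FPKM in control libraries, which overlapped.

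Conjugating enzymes, which act after the P450s, were evenly split, with 7 higher and 7 lower of 20 tested, beside 25.6% and 37.9% of all tested genes. MGST1, a microsomal glutathione transferase, averaged 812 ± 27.1 FPKM in knockdown and 529.6 ± 44.1 in control libraries and rose. GSTM4 averaged 25.2 ± 2.36 and 60.7 ± 2.52 FPKM in knockdown and control libraries and GSTK1, a mitochondrial and peroxisomal transferase, 77.4 ± 2.34 and 131 ± 10.0; both fell. SULT1A3, a catechol sulfotransferase with a near-identical gene copy, averaged 12.5 ± 1.17 and 7.93 ± 1.44 FPKM in knockdown and control libraries and rose. GSTM1 had 57.4 to 61.6 FPKM in knockdown and 46.8 to 52.4 FPKM in control libraries, a call lost after quantile normalization (adjusted p = 0.0517). GSTM2 averaged 3.77 ± 0.434 and 6.39 ± 1.97 FPKM in knockdown and control libraries, a call lost in several settings, such as quantile normalization. GSTM genes are close paralogs whose reads may be divided uncertainly. GSTP1, the most abundant of the list, averaged 1167 ± 52.3 FPKM in knockdown and 1162 ± 63.7 in control libraries. Nuclear receptors of xenobiotics and lipids had 1 higher and 5 lower of 11, beside the same shares, with a median log2 change of -0.15. PPARA, a fatty acid sensor, averaged 3.58 ± 0.249 FPKM in knockdown and 6.67 ± 0.427 in control libraries. PPARD averaged 13.5 ± 0.903 and 19.2 ± 2.32 FPKM in knockdown and control libraries, and the oxysterol receptor NR1H3 7.69 ± 0.269 and 11.6 ± 1.73. The drug receptor NR1I2 was listed in no library.

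**Figure D4:**
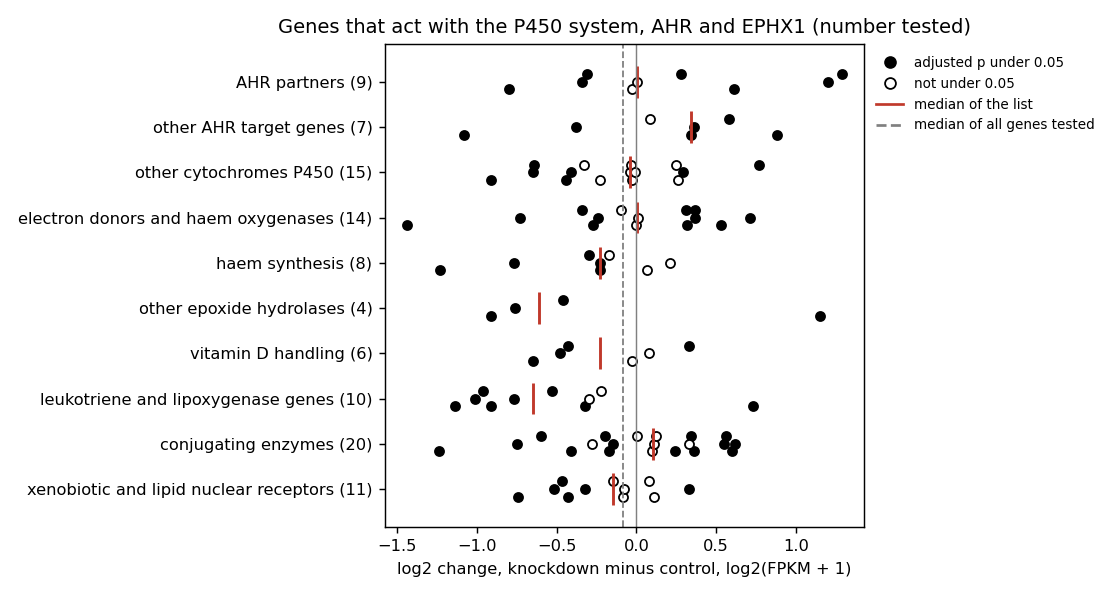
Log2 change, as knockdown minus control in log2(FPKM + 1), of every tested gene in 10 lists, with the number tested in brackets; filled points passed at an adjusted p under 0.05, red bars are list medians and the dashed line is the median of all genes. The leukotriene list and the other epoxide hydrolases have the lowest medians (-0.65 and -0.61) and the other AHR target genes the highest (0.34).

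By the root mean square distance between mean-centred log2(FPKM + 1) profiles over the 6 libraries, among genes of at least 5 FPKM, the profiles nearest to EPHX1 were those of NCL (distance 0.0204), FJX1 (0.0235) and FBXO30 (0.0272). The profiles nearest to AHR were those of SRGAP1 (0.0209), DR1 (0.0242) and SLC38A10 (0.0257). These were ranked among 9169 genes, and the likeness says nothing of shared function or control.

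The authors' deposited table of their own comparison lists 8 of the 10 genes, without CYP1A1 and CYP24A1, and gives 1 FPKM value per group. In the authors' deposited table EPHX1 had 164 FPKM in knockdown and 74.3 FPKM in control cells (false discovery rate 0.00356), and CYP4F3 had 23.4 and 10.9 FPKM (0.000722). These were the 2 members in the authors' subset of called genes, which holds 8.63% of the 12275 genes in the authors' deposited table. CYP4F11 stood there at a log2 fold change of 0.74 with a false discovery rate of 0.00583 but was not in the subset, whose smallest absolute log2 fold change is 1.00. AHRR had 0.953 and 2.13 FPKM in knockdown and control cells in the authors' deposited table, a log2 fold change of -1.16 with a false discovery rate of 0.693, and was not called there, whereas it passed in limma. POR, which also passed in limma, stood there at 51.8 FPKM in knockdown and 41.5 FPKM in control cells. Its log2 fold change of 0.32 had a false discovery rate of 0.365, so POR was not called there either. The locus that the authors' deposited table gives for AHRR starts at 271736 and so includes PDCD6, and those for EPHX1 and POR likewise run on into TMEM63A and TMEM120A.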

How the data were processed

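RNA libraries of 3 FOXD3 knockdown and 3 control samples of A549 cells were made with a TruSeq RNA kit. The submitters' processing notes list the build hg19 and the tools Cuffdiff, Cufflinks 2.0.2, TopHat2 2.0.12 and Bowtie. For strand setting and annotation release, the sources used here give nothing. Per the file headers, the authors deposited FPKM per library. Their comparison table holds the deposited group FPKM, p-value, FDR and log2 fold change. FPKM was summed over rows of a symbol, with unlisted symbols at 0. Loci are on hg19, converted to 1-based. All genes averaging at least 0.5 FPKM entered limma 3.58.1 in R 4.3.3 as log2(FPKM + 1), with eBayes, a mean trend and Benjamini-Hochberg adjustment; the script was first tested on simulated data. Exact permutation tests used scipy 1.17.1. Depth was estimated on genes without introns, 2500 bp or longer and within 10% of their GENCODE 29 length, between 5000000 and 12000000 fragments. Promoters were aligned with Biopython 1.88. From each list, up to 4 called genes of largest change and those of at least 50 FPKM are named; CYP4F12, CYP4F2, CYP4F8, CYP4F24P, CYP51A1, CYP1A2, CYP3A4, CYP2E1, VDR, NR1I2, ARNT, SRC, CPOX, FECH, GSTM2, the cell type markers and the neighbouring genes were named after their values were seen. The members and lists were chosen with earlier results of these data known. Alternatives changed the pseudocount, filter, scaling, eBayes options and row choice, or left out 1 library.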

Additional observations from a re-analysis of the deposited data

How the results depend on the processing

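EPHX1, CYP4F3, CYP4F11 and POR kept their direction and their call under all 15 alternatives, and AHRR under all that tested it. EPHX1 ranged from 0.91 to 1.09 on the log2 scale, CYP4F3 from 0.90 to 1.01, CYP4F11 from 0.55 to 0.69, POR from 0.12 to 0.25 (highest limma adjusted p = 0.0485) and AHRR from -1.20 to -0.45. CYP1A1 was called in 9 of 15 settings. The number of members called was 4 to 8 over all settings, and 5 to 6 with 1 library left out. With a filter at 5 FPKM fewer genes are tested, and calls came to 1 among the other P450s, 1 among the other epoxide hydrolases, 4 in the leukotriene list and 3295 lower genes in all. With 1 library left out, other P450 calls numbered 4 to 5, calls over all genes 7488 to 8514, and the FOXD3 difference was -0.196 to -0.118 FPKM. The summed P450 FPKM over POR, knockdown minus control, was -0.0362, and changed sign after quantile normalization (0.243) and across libraries left out (-0.146 to 0.052); the cause was not tested. No paired analysis was possible because the labels give no replicate numbers, and those used here only name the libraries in order of deposit. Without read counts, the precision of the low genes AHRR, CYP1A1 and CYP24A1 rests on a rough depth, and FOXD3 itself is at the limit of detection.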
